A study of Mus musculus with 49 samples.

Results

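Deletions of 3 to 19 bases with microhomology were described in the repair products of Cas9 breaks at 3 target sites of an integrated reporter in mouse embryonic stem cells. A read was a member if it carried a single deletion of that size and if at least 3 start positions of the deletion gave the same product on the consensus of the guide's wild-type reads, which is a microhomology of at least 2 bases. Members were therefore selected on deletion size and microhomology, and both are given as description and not as findings. With sgRNA1, 47622 of 198078 reads were members and fell into 29 alleles. With sgRNA2, 14190 of 169141 reads were members, in 28 alleles, and with sgRNA3, 21772 of 210503 reads were members, in 19 alleles.

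The cells were EBRTcH3 mouse embryonic stem cells that express the transactivator tTA from the ROSA26 locus, and the line, EStTA-PB-B-18, is 1 clone with 36 barcoded piggyBac reporters (IRs) that carry EGFP under the mPGK promoter. In separate assays the clone received a plasmid for Cas9 and sgRNA1, sgRNA2 or sgRNA3 by lipofection together with an mCherry plasmid. The mCherry plasmid was the study's plasmid for a piggyBac transposase that tamoxifen activates, and no tamoxifen is described for these assays. Cells were sorted on mCherry, and the target region was amplified and sequenced after expansion. Each guide is 1 sample of the 49 in the series; the triplicates were merged before deposit, so values have no replicate spread and no difference between guides was tested. The tables hold reads of the reporter only, so the cell type could not be checked against marker genes. Reads per IR ranged from 2105 to 11160 with sgRNA1, from 1581 to 9618 with sgRNA2 and from 1873 to 11481 with sgRNA3, with the fewest in BC_36 and the most in BC_3 for each guide. Wilson 95% intervals below cover counting error only and take each read as independent. The reads carry no molecular identifiers, so copies of the same molecule cannot be told apart and the intervals may be too narrow.

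Microhomology-mediated end joining, a form of alternative end joining that depends largely on DNA polymerase theta, resects the ends of a break and pairs short repeats on either side of it. The repair keeps a single copy of the repeat and loses the other copy together with the bases between them. A deletion with a repeat at its edges can also come from classical end joining, so the allele alone does not name the pathway.

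The guides are shown because their breaks set which repeats can pair. Capitals mark the PAM, and the break is expected between the 3rd and 4th base upstream of it.
sgRNA1: gccgagagtgatcccggcggCGG
sgRNA2: cgccgggatcactctcggcaTGG
sgRNA3: agtgtcacctaaatcgtatgCGG

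The sgRNA1 target lies on the opposite strand of the reads and overlaps that of sgRNA2, with 15 bases between the expected breaks. The windows below are given on the strand of the reads, from the consensus of wild-type reads, and capitals mark the pair of bases on either side of each expected break.
sgRNA1 and sgRNA2 window: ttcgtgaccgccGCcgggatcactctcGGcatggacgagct
sgRNA3 window: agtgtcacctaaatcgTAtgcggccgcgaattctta

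For each guide the 6 most-read alleles are shown as the stretch from the first to the last copy of the repeat, with the copies in capitals. The deletion removes the lower-case bases and 1 copy. In the first allele of sgRNA1 the repeat copies overlap: the triplet CCG stands 3 times in a row and 1 triplet is lost, which can be placed at 7 start positions and so counts as 6 bases of microhomology.
sgRNA1, 3 bases deleted: CCGCCGCCG
sgRNA1, 6 bases deleted: CCGccgCCG
sgRNA1, 12 bases deleted, repeat GA: GAccgccgccggGA
sgRNA1, 12 bases deleted, repeat CG: CGtgaccgccgcCG
sgRNA1, 18 bases deleted: TCgtgaccgccgccgggaTC
sgRNA1, 15 bases deleted: ACcgccgccgggatcAC
sgRNA2, 9 bases deleted, repeat CA: CActctcggCA
sgRNA2, 16 bases deleted: GGAtcactctcggcatGGA
sgRNA2, 12 bases deleted: ATcactctcggcAT
sgRNA2, 13 bases deleted: ACtctcggcatggAC
sgRNA2, 9 bases deleted, repeat CG: CGgcatggaCG
sgRNA2, 19 bases deleted: GAtcactctcggcatggacGA
sgRNA3, 5 bases deleted: ATcgtAT
sgRNA3, 7 bases deleted: TAaatcgTA
sgRNA3, 6 bases deleted: CGtatgCG
sgRNA3, 10 bases deleted: CGtatgcggcCG
sgRNA3, 17 bases deleted: AATcgtatgcggccgcgAAT
sgRNA3, 12 bases deleted: CGtatgcggccgCG

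Microhomology deletions made up a different share of the reads with each guide. With sgRNA1 their share was 24.1% ± 2.97 (mean and SD over 36 IRs; pooled 24.0%, interval 23.9 to 24.2). With sgRNA2 it was 8.37% ± 1.58 (pooled 8.39%, interval 8.26 to 8.52). With sgRNA3 it was 10.2% ± 1.75 (pooled 10.3%, interval 10.2 to 10.5). Over IRs it ran from 16.3% to 29.9% with sgRNA1, from 3.87% to 12.6% with sgRNA2 and from 4.40% to 14.2% with sgRNA3, so the sgRNA1 values did not overlap with the others and those of sgRNA2 and sgRNA3 did.

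Per IR, sgRNA1 exceeded sgRNA2 by 15.7 percentage points ± 2.11 (SD), from 12.0 in BC_30 to 20.0 in BC_34, and was higher in all 36 IRs. With the most-read microhomology deletion of each guide taken out of the members and all reads kept in the denominator, an alternative chosen after seeing the data, the shares were 5.06%, 6.37% and 5.73% and the difference was -1.31 points ± 1.04. With those reads also taken out of the denominator the shares were 6.26%, 6.51% and 6.01% and the difference was -0.242 points. The excess of sgRNA1 in the share of reads therefore rested on the loss of 1 CCG triplet, while among deletions of 3 to 19 bases the fraction without these alleles was still higher with sgRNA1 (32.5%) than with sgRNA2 (26.9%). Between sgRNA3 and sgRNA2 the difference was 1.85 points ± 1.57, with sgRNA3 higher in 32 IRs and lower in 4, from -3.08 in BC_36 to 4.68 in BC_27. Without the leading alleles it was -0.638 points ± 1.11 with all reads in the denominator and -0.499 points without those reads. The sgRNA3 table has a different number in its label than the other tables, of unstated meaning; should it stand for a batch, the sgRNA3 guide and that batch cannot be told apart.

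The guides also differed in how often they left any mutation, so the members were set against mutated reads as well. Reads with a mutation were 51.2% ± 6.36 of all reads with sgRNA1, 53.0% ± 6.78 with sgRNA2 and 65.8% ± 5.35 with sgRNA3 (SD over IRs). Of those mutated reads, members were 47.1% ± 2.00, 15.7% ± 1.77 and 15.5% ± 2.28. On this scale sgRNA3 and sgRNA2 differed by -0.218 points ± 2.40, with sgRNA3 higher in 17 IRs and lower in 19. The small excess of sgRNA3 seen among all reads was not present among mutated reads.

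Among single deletions of 3 to 19 bases, the fraction with microhomology was 69.4% ± 3.31 with sgRNA1, 32.5% ± 3.40 with sgRNA2 and 39.3% ± 5.40 with sgRNA3 (SD over 36 IRs). These fractions count reads, whereas the background values below count each distinct product once. As distinct alleles, 29 had such microhomology and 237 did not with sgRNA1, 28 and 230 with sgRNA2, and 19 and 197 with sgRNA3. Of the distinct deletions of 3 to 19 bases that touch the expected break, 8.84% have 2 or more bases of microhomology at the sgRNA1 site (13 of 147), 10.8% at the sgRNA2 site (17 of 157) and 8.86% at the sgRNA3 site (14 of 158). Since the rule used microhomology, the fractions are set beside these background values without a test. The 2 sets also differ because the fractions cover all single deletions of these sizes and the background only products that touch the break. Limited to deletions that touch the break, the fractions were 71.1%, 34.0% and 49.9%.

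Every one of these 13, 17 and 14 possible products was read at least once, as were nearly all products that touch the break (147 of 147, 154 of 157 and 157 of 158). At the sgRNA1 site a possible product with 2 or more bases of microhomology had a median of 411 reads, and one with 0 or 1 base had 46.0. At the sgRNA2 site the medians were 568 and 38.5 reads, and at the sgRNA3 site 472 and 40.5 reads. By these medians, possible products with more microhomology had more reads at each site. A product with more microhomology also joins more start positions by definition, so part of this order is built in. The medians were not divided by the number of start positions or matched for deletion size. By length of the repeat, the sgRNA1 median was 25.0 reads at 0 bases, 137 at 1 base and 403 at 2 bases. With sgRNA2 the same medians were 32.5, 151 and 432 reads, and with sgRNA3 they were 29.5, 134 and 464 reads. Single possible products could depart from this order, as the most-read one with 0 or 1 base had 3339, 2497 and 4149 reads.

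The lengths of the repeats among members differed by site. With sgRNA1, 79.1% of member reads were the triplet loss, which counts as 6 bases only because its repeat copies overlap. A further 8.54% had 3 bases and 12.4% had 2 bases. With sgRNA2, 79.9% had 2 bases and 20.0% had 3 bases. With sgRNA3, 96.3% had 2 bases and 3.69% had 3 bases. Repeats longer than 2 bases were thus a small part of the sgRNA3 member reads and most of those with sgRNA1, although 24 of the 29 sgRNA1 alleles have 2 bases.

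The loss of 1 CCG triplet led with sgRNA1 in every one of the 36 IRs. It was 19.05% ± 2.68 of all reads (SD over IRs), from 12.6% in BC_30 to 24.0% in BC_35, with a median of 19.02%. Of the members of an IR it was 78.9% ± 2.75, from 73.6% in BC_2 to 84.9% in BC_25. The tables write this loss at its last possible start position in 97.3% of the reads, and the product is the same whichever triplet is lost.

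The loss of 2 of the 3 CCG triplets followed with 3996 reads, 2.02% of all reads (interval 1.96 to 2.08), and 8.48% ± 1.32 of the members of an IR. The next alleles were much rarer. The deletion of 12 bases between copies of GA held 1252 reads (0.632%), and the one of 12 bases between copies of CG held 1141 (0.576%). The deletion of 18 bases between copies of TC held 1051 reads (0.531%) and that of 15 bases between copies of AC held 732 (0.370%). Together the 6 alleles were 96.2% of the sgRNA1 members, and 3 alleles were enough to reach 90% of them.

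With sgRNA2 no allele dominated. The deletion of 9 bases between copies of CA had 3376 reads, 2.00% of all reads (interval 1.93 to 2.06) and 23.7% ± 3.54 of the members of an IR. The deletion of 16 bases between copies of GGA had 2241 reads, 1.32% of all reads (interval 1.27 to 1.38) and 16.5% ± 3.95 of the members. These alleles competed for the lead: the first led in 32 IRs and the second in the other 4.

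In BC_18 the GGA deletion had 85 reads against 77 of the CA deletion, in BC_27 it had 79 against 77, and in BC_29 it had 81 against 73. In BC_30 it had 23 against 16, out of 107 member reads. The lead in these IRs rested on differences of a few reads.

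The deletion of 12 bases between copies of AT held 1443 reads (0.853%) and that of 13 bases between copies of AC held 1411 (0.834%). The deletion of 9 bases between copies of CG had 943 reads (0.558%) and that of 19 bases between copies of GA had 620 (0.367%). The 6 leading alleles made up 70.7% of the sgRNA2 members, and 11 alleles were needed for 90% of them.

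With sgRNA3 the loss of 5 bases between copies of AT led in all 36 IRs. It had 9638 reads, 4.58% of all reads (interval 4.49 to 4.67), from 2.15% in BC_8 to 7.93% in BC_27 with a median of 4.60%. Of the members of an IR it was 43.6% ± 6.93, from 25.9% in BC_8 to 55.8% in BC_27. It stood first in every IR, but its part in the members differed widely between IRs.

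The loss of 7 bases between copies of TA had 3728 reads (1.77%; interval 1.72 to 1.83), and its part in the members ran from 8.61% in BC_27 to 29.4% in BC_22. The loss of 6 bases between copies of CG had 2980 reads (1.42%; interval 1.37 to 1.47), and its part ran from 7.53% in BC_22 to 35.2% in BC_26. The 3rd of these 3 leading alleles was therefore lowest where the 2nd was highest. The deletion of 10 bases between copies of CG had 1250 reads (0.594%), that of 17 bases between copies of AAT had 802 (0.381%) and that of 12 bases between copies of CG had 489 (0.232%). The 6 alleles held 86.7% of the sgRNA3 members, and 8 held 90%.

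The deleted stretch reached the expected break in nearly all members. Of the sgRNA1 member reads, 99.8% had a start position at which the deleted stretch touched or spanned the break, as did 95.2% with sgRNA2 and 99.6% with sgRNA3. The main exception was a deletion of 6 bases between copies of TC with sgRNA2, which has 616 reads in 35 IRs and ends 1 base short of the break.
sgRNA2, 6 bases deleted beside the break: TCactcTC

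Deletions of the same size without such microhomology touched the break in 92.1% of their sgRNA1 reads, 89.5% of their sgRNA2 reads and 64.8% of their sgRNA3 reads. Members are not compared with them here, because the rule gives members more start positions and contact at any of these counts. The most-read sgRNA3 allele without such microhomology is the loss of atcg, with 7345 reads in 36 IRs, which ends 1 base short of the expected break. Counted from a break 1 base further from the PAM, a choice made after seeing the data, 92.7% of the sgRNA3 reads without such microhomology in this size range touched it. The fraction with microhomology among deletions that touch the break was 49.9% at the expected break and 41.0% at the shifted one, so at this site its value depended on where the break was set.

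The size of a member equals the spacing of its repeat copies by the rule, so sizes are given as description. With sgRNA1 the mean size was 4.70 bases ± 3.96 (SD over reads) and the median 3.00 bases. With sgRNA2 the mean was 12.1 bases ± 3.74 and the median 12.0, and with sgRNA3 the mean was 7.72 bases ± 3.99 and the median 6.00. The deletions of 3 to 19 bases without such microhomology had medians of 7.00, 6.00 and 5.00 bases, so the median member was longer than these with sgRNA2 and, by 1 base, with sgRNA3, and shorter with sgRNA1.

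Within a single size the members could be most or almost none of the deletions. With sgRNA2, members were 79.7% of deletions of 9 bases, 88.9% of those of 12 bases and 86.8% of those of 16 bases, but 0.502% of those of 4 bases. With sgRNA3, members were 86.7% of deletions of 5 bases and 0.0531% of those of 4 bases. With sgRNA1, members were 99.0% of deletions of 3 bases and 0.0727% of those of 4 bases. A size could thus consist almost wholly of members or hold almost none, and the most frequent size with sgRNA3, 4 bases with 11294 reads, was of the second kind.

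A size that is a multiple of 3 keeps the phase of a reading frame only where the deletion lies within coding sequence. Whether each break does so was not examined, so the shares here describe size only. The size was a multiple of 3 in 98.3% of the sgRNA1 member reads, 52.2% of those of sgRNA2 and 23.0% of those of sgRNA3. In deletions of the same size range without such microhomology the shares were 21.0%, 35.6% and 34.8%. With sgRNA1 each of the 6 leading alleles loses a multiple of 3 bases.

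At the limits of the rule, the most-read sgRNA1 deletion with 2 bases of microhomology was the 12-base GA deletion with 1252 reads, and the most-read one with 1 base had 3339 reads (5 bases deleted). With sgRNA2 these were the 9-base CA deletion with 3376 reads and one of 6 bases with 1731 reads. With sgRNA3 these were the 5-base AT deletion with 9638 reads and one of 3 bases with 4149 reads. With sgRNA1 the deletion just under the limit was therefore read more often than the one just above it.
sgRNA1, 5 bases deleted, repeat of 1 base: GccggG
sgRNA2, 6 bases deleted, repeat of 1 base: TcggcaT
sgRNA3, 3 bases deleted, repeat of 1 base: TcgT

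At the lower size limit, the triplet loss was the most-read member of 3 bases with sgRNA1, with 37659 reads, while the most-read deletion of 2 bases with at least 2 bases of microhomology had 11. With sgRNA2, the most-read member of 3 bases was again the triplet loss, with 17 reads, and a 2-base deletion within CTCTC had 1379. With sgRNA3 the most-read member of 3 bases had 4 reads, and no deletion of 2 bases with such microhomology was seen. At the upper limit, the 19-base deletion with most reads had 411 with sgRNA1 and a 20-base deletion between copies of GGA had 1337. With sgRNA2 the counts were 620 at 19 bases and 1 at 20 bases; with sgRNA3 no member had 19 bases and the 20-base deletion had 4 reads. From 20 to 29 bases, deletions with such microhomology held 3286 further reads with sgRNA1 (1.66% of all reads), 1747 with sgRNA2 (1.03%) and 1658 with sgRNA3 (0.788%). The most-read of these had 20 bases with sgRNA1, 21 bases with sgRNA2 (503 reads) and 27 bases with sgRNA3 (469 reads), so the upper limit leaves out alleles with each guide.
sgRNA1, 20 bases deleted: GGAgttcgtgaccgccgccgGGA

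Since the targets of sgRNA1 and sgRNA2 overlap, the same alleles could be counted with both guides. In the sgRNA2 reads, where the break lies 15 bases away in the same window, the loss of 1 CCG triplet was found in 17 reads, 0.0101% (interval 0.00628 to 0.0161), against 19.01% with sgRNA1. The loss of 2 triplets was found in 9 reads of sgRNA2. In the other direction, the 9-base CA deletion that leads with sgRNA2 was found in 3 reads of sgRNA1, 0.00151% (interval 0.000515 to 0.00445). These alleles, chosen as the most-read ones with their own guide, were thus rare with the other guide. The cause was not tested. Of the member alleles, 20 occurred with both guides (69.0% of the sgRNA1 alleles and 71.4% of the sgRNA2 alleles), many with only a few reads of 1 guide, and they held 92.0% and 89.1% of the member reads. Of the alleles of this size without such microhomology, 89 occurred with both guides (37.6% and 38.7%).

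In 4 of the shared alleles the deleted stretch can touch or span both breaks; the sgRNA2 break lies at the edge of the pair with repeat CG and inside the pair with repeat GC. The deletion of 15 bases between copies of CG had 403 reads with sgRNA1 and 79 with sgRNA2, and that of 18 bases had 231 and 17. The deletion of 16 bases between copies of GC had 242 reads with sgRNA1 and 368 with sgRNA2, and that of 19 bases had 119 and 186. None of these was among the 6 leading alleles of either guide.
15 bases deleted: CGccgggatcactctCG
18 bases deleted: CGccgccgggatcactctCG
16 bases deleted: GCcgggatcactctcgGC
19 bases deleted: GCcgccgggatcactctcgGC

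The share of members varied across IRs by more than the counting of independent reads would give. The SD over IRs was 4.91 times the SD expected from such counting with sgRNA1, 3.68 times with sgRNA2 and 4.14 times with sgRNA3. As a share of mutated reads these ratios were 2.01, 2.25 and 3.64. Reads copied from the same molecule cannot be told apart, so these ratios may overstate differences between IRs. Relative to the mean, the SD over IRs was 12.3%, 18.8% and 17.2% for the share of all reads. For the share of mutated reads it was 4.25%, 11.2% and 14.7%. Part of the spread over IRs therefore went with the mutation frequency of the IR.

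With sgRNA1 the highest share was in BC_35 (29.9%; interval 28.3 to 31.6), which lies on chromosome 3 at position 123391370 of mm9, inside Ndst3, a gene of heparan sulfate synthesis, and outside its exons. BC_11 was near the median (24.4%; interval 23.3 to 25.5) and lies on chromosome 8 at position 93854538, inside Fto, which encodes an RNA demethylase, and outside its exons. BC_30 had the lowest share (16.3%; interval 15.0 to 17.6). Its mutated reads were 32.1% of all reads against 62.5% in BC_35, while the members were 50.8% and 47.9% of the mutated reads. BC_30 was thus not below BC_35 on this scale, for which no interval was computed.

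With sgRNA2 the highest share was in BC_36 (12.6%; interval 11.0 to 14.3), on chromosome 12 at position 86451259, in no annotated gene. BC_15 was near the median (8.69%; interval 7.92 to 9.52), on chromosome 1 at position 179506405, also in no annotated gene. BC_26 had the lowest share (3.87%; interval 3.25 to 4.60). Among mutated reads BC_36 was again highest (20.9%) and BC_26 lowest (12.2%), so here the order was the same on both scales.

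With sgRNA3 the highest share was in BC_27 (14.2%; interval 13.3 to 15.2), on chromosome 17 at position 10530910, in no annotated gene. BC_19 was near the median (10.4%; interval 9.67 to 11.3), on chromosome 1 at position 66033486, in no annotated gene. BC_30 had the lowest share (4.40%; interval 3.75 to 5.16), and its members were 8.52% of mutated reads against 21.2% in BC_27. The same IR was thus lowest with sgRNA1 and sgRNA3.

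Across the 36 IRs, which share a clone and, within a guide, a library, the share of members of all reads and the share of mutated reads, which contains the members, had a Pearson's r of 0.95 with sgRNA1 (Spearman 0.93), 0.83 with sgRNA2 (0.70) and 0.60 with sgRNA3 (0.36). Without the 2 IRs farthest from the median mutation frequency r was 0.95, 0.67 and 0.22. A positive r is in part built in, because members are mutated reads. Against the share of members among mutated reads r was -0.29 with sgRNA1 (Spearman 0.04), 0.36 with sgRNA2 (0.13) and 0.23 with sgRNA3 (-0.02), and without the 2 farthest IRs 0.24, 0.03 and -0.24. These 2 shares also have a term in common, since mutated reads are the numerator of one and the denominator of the other. Shares of members correlated between sgRNA1 and sgRNA2 with r = 0.73 (Spearman 0.61) and between sgRNA1 and sgRNA3 with r = 0.43 (Spearman 0.22). Without the 2 IRs farthest from the sgRNA1 median these were 0.59 and 0.05. Between sgRNA3 and sgRNA2 r was 0.56 (Spearman 0.33), and 0.19 without the 2 IRs farthest from the sgRNA3 median. Among mutated reads the relations with sgRNA1 had the opposite sign: r was -0.52 with sgRNA2 (Spearman -0.40; -0.32 without the 2 farthest IRs) and -0.49 with sgRNA3 (Spearman -0.38; -0.31). Between sgRNA3 and sgRNA2 it was 0.32 (Spearman 0.19; 0.11). For the pairs with sgRNA1 the sign therefore depended on the denominator.

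Among mutated reads, where the shares of all classes add up to the same whole, members and insertions moved in opposite directions with sgRNA3 (r = -0.76, Spearman -0.72, n = 36) and with sgRNA2 (r = -0.55, Spearman -0.53). Without the 2 IRs farthest from the median share of insertions r was -0.68 and -0.33. With sgRNA1, where insertions were 2.30% of all reads, r was 0.27 (Spearman 0.07), and -0.14 without the 2 farthest IRs. The relation was thus weaker without those IRs with sgRNA2 and had no steady sign with sgRNA1. Other classes had relations of like size. For deletions of 1 or 2 bases r was -0.56 with sgRNA2 and 0.63 with sgRNA3, and -0.37 and 0.53 without the 2 farthest IRs. For those of 20 bases or more it was -0.49 with sgRNA1, and -0.57 without the 2 farthest IRs. Insertions were 25.9% of all reads with sgRNA3, and were more frequent there than members in all 36 IRs. In BC_30, which has the lowest member share with sgRNA3, insertions were 66.8% of mutated reads.

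Set against the other deletion classes, members exceeded deletions of the same size without such microhomology in all 36 IRs with sgRNA1 (24.1% against 10.8% of reads) and were below them in all 36 with sgRNA2 (8.37% against 17.6%). With sgRNA3 members were lower in 35 IRs and higher in 1 (10.2% against 16.1%). Deletions of 1 or 2 bases were 7.19%, 10.6% and 8.19% of reads, and those of 20 bases or more were 4.28%, 5.41% and 3.40%. Members were the largest of these 4 deletion classes with sgRNA1 only.

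Relative to its mean, the share of members among mutated reads varied less over IRs than that of the other deletions of this size. The coefficient of variation over IRs was 4.25% for members and 13.6% for the deletions without such microhomology with sgRNA1, 11.2% and 12.8% with sgRNA2, and 14.7% and 18.8% with sgRNA3. No test of these differences was made.

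The composition of the members was also compared between IRs, as the percentage of an IR's member reads that would have to move to other alleles to match the other IRs together. It was 1.32% to 6.76% with sgRNA1 (median 3.88%), 7.42% to 26.8% with sgRNA2 (median 12.4%) and 6.10% to 25.3% with sgRNA3 (median 12.4%). The IRs farthest from the others were BC_30 with sgRNA1 and sgRNA2 and BC_26 with sgRNA3, with 503, 107 and 216 member reads. The distance that counting error alone would give was not computed.

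In BC_26 with sgRNA3, the CG deletion of 6 bases was 35.2% of the members against 13.5% in the other IRs. In BC_8, which has 490 member reads, the AT deletion of 5 bases was 25.9% against 44.7%. In BC_30 with sgRNA2, the CG deletion of 9 bases was 17.8% against 6.56%. These IRs were named for their departure from the rest, and the difference that counting error alone would give was not computed. The AT deletion still led in BC_26 and BC_8.

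Most reads of sgRNA1 and sgRNA2 begin with 1 of 4 pairs of bases. The study's forward primers carried index sequences for separate reactions; whether these pairs are those indices is not stated in the sources used here. Over the 4 pairs the share of members was 24.0% to 24.4% with sgRNA1 (SD 0.179) and 8.36% to 8.60% with sgRNA2 (SD 0.109). This spread was small beside that over IRs. The other 1.54% of reads with each guide held fewer members, 13.7% of 3043 reads with sgRNA1 (interval 12.5 to 15.0) and 5.14% of 2608 with sgRNA2 (interval 4.35 to 6.05). They were mutated more often, 68.1% and 67.6%, than the reads of the 4 pairs, 50.6% to 51.1% with sgRNA1 and 52.4% to 53.1% with sgRNA2. The first 2 bases of the consensus thus differ between reads, and 1 allele of sgRNA1 and 1 of sgRNA2, each with 1 read, have their repeat there.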

How the data were processed

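Amplicon reads of the reporter in the clonal line were used, with 1 sample for each guide. The authors parsed the barcode of each read, aligned the target region to the unmutated sequence, called lesion class, changed bases and position, merged triplicates and deposited 1 line per read with an alignment score. The score was used only for an alternative that leaves out reads under its 10th percentile.

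Reads with the 36 barcodes of the line were kept (97.2%, 97.2% and 96.6% of lines for sgRNA1, sgRNA2 and sgRNA3). The consensus of wild-type reads (80, 80 and 68 bases) was used to find all start positions with the same product; 1 deletion of sgRNA2 ran past the window and was not counted as a member. Deletions with several lesions were left out. Shares were computed per IR with Python 3.11.15, pandas 2.3.3 and scipy 1.17.1, and the steps were tested on simulated reads. Sequences of the guides came from the study's oligo list. Positions of IRs are in mm9, known for 27 of 36, and genes come from GENCODE vM1.

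The members and lists were chosen with earlier results of these data known. Named alleles were the 6 with most reads per guide and those at each limit of the rule; named IRs were the highest, the one near the median, the lowest and those with another leading allele. Alleles that can touch both breaks, the most-read ones above the upper limit, BC_8 and the allele beside the sgRNA2 break were chosen after their values were seen. The 2 count columns of the reporter table were not used, and the pool samples were not analysed here.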

Additional observations from a re-analysis of the deposited data

Results flagged for a closer look

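Reads with barcodes outside the 36 of the line were not used above but held microhomology deletions too. They were 25.3% of 5700 such reads with sgRNA1 (interval 24.2 to 26.4), 7.88% of 4861 with sgRNA2 (interval 7.15 to 8.67) and 9.40% of 7466 with sgRNA3 (interval 8.76 to 10.1). The pooled shares in the 36 IRs were 24.0%, 8.39% and 10.3%. A count of 0 among the reads with other barcodes would allow at most 0.0526%, 0.0617% and 0.0402%. These reads carry 1333, 1323 and 2151 different barcodes. The origin of these barcodes was not tested.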

How the results depend on the processing

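Each of 8 values was recomputed under 8 alternatives and under others added after the data were seen. Of 101 values, 39 moved by less than the counting interval, 55 moved by more and 7 changed sign; the intervals are narrow, since each guide has at least 169141 reads. Values are given in the order sgRNA1, sgRNA2, sgRNA3, first the share of all reads, then the fraction of deletions of 3 to 19 bases, then the differences in share from sgRNA2 in percentage points.

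Without low alignment scores the shares were 24.6%, 8.76% and 10.7%. With 1 base or more of microhomology the shares were 31.5%, 14.6% and 16.2%, the fractions 90.3%, 56.6% and 62.0%, and the differences 16.8 (sgRNA1) and 1.58 (sgRNA3). With 3 bases or more they were 21.1%, 1.72% and 0.401%, then 60.7%, 6.78% and 1.52%, then 19.4 and -1.32, so the order of sgRNA3 and sgRNA2 turned round. With sizes of 3 to 29 bases the shares were 25.8%, 9.42% and 11.0%, the fractions of sgRNA1 and sgRNA2 68.9% and 33.2%, and the differences 16.3 and 1.60. Pooling the reads gave fractions of 69.0% with sgRNA1 and 38.5% with sgRNA3. With deletions that touch the break, the sgRNA2 share was 7.99%, the fractions 71.1%, 34.0% and 49.9%, and the differences 16.1 and 2.19.

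Without the most-read deletion of any kind, which with sgRNA2 is a 2-base deletion that is no member, the shares were 6.26%, 8.80% and 6.01%. The fractions were 32.5%, 32.5% and 26.8%, and the differences -2.53 and -2.79. Both differences changed sign. Without BC_26 and BC_35, lowest and highest in mutation frequency averaged over the guides, the sgRNA3 share was 10.4%.

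Of the alternatives added after seeing the data, a break 1 base further from the PAM gave fractions of 71.4%, 34.8% and 41.0%. Leaving out the most-read member of each guide from members and denominator gave shares of 6.26%, 6.51% and 6.01%, fractions of 32.5%, 26.9% and 26.8%, and differences of -0.242 and -0.499. Leaving it out of the members only gave shares of 5.06%, 6.37% and 5.73% and differences of -1.31 and -0.638. Among reads starting with CT the sgRNA1 share was 24.5% and its fraction 70.0%; among those starting with TA the shares were 24.3% with sgRNA1 and 8.56% with sgRNA2. The cause of the shifts with alignment score was not tested. Differences between guides were taken per IR; replicates could not be paired, since each guide is 1 sample.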
